A study of Bos taurus with 4 samples.

Results

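The genes described here encode the factors that start, extend and end protein synthesis on cytoplasmic ribosomes. They were chosen by symbol alone, as genes whose name on the array begins with EIF1 to EIF6 or EEF1 or EEF2, together with the termination factors ETF1, GSPT1 and GSPT2. The kinases of eIF2, whose symbols begin with EIF2AK, were left out. The rule gave 58 genes on 88 probes, of 15216 genes with a symbol on the array, and where a gene had several probes the one with the highest mean raw signal over all channels was used. Of these 58 genes, 55 gave enough signal to be tested, and EIF2C1, EIF4EBP1 and EIF4G3 did not (detected in 3, 2 and 3 of 8 readings). A probe was tested when at least 4 of its 8 readings, from 4 arrays with 2 channels each, lay above the level of the array's negative control spots.

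Cattle embryos were produced in vitro from slaughterhouse oocytes (beef breed by the labels) and frozen-thawed semen of a dairy bull, and compact morulae were taken on day 6 of culture by the labels. The slow-frozen group consisted of expanded blastocysts that grew from morulae frozen slowly in 1.5 M glycerol, thawed and returned to culture. The control group consisted of expanded blastocysts from morulae that were never frozen. Both groups shared the maturation, fertilization and culture up to the morula stage and contained only embryos that had reached expansion. The study reports that a smaller share of slow-frozen than of control morulae did so, and the groups were thus not equally selected. Slow-frozen morulae were also stored in liquid nitrogen before their culture went on. Each of 4 arrays on 1 slide compared a slow-frozen pool with a control pool, each of 7 embryos collected on day 7 by the labels, with the slow-frozen pool in Cy5 on arrays 1 and 2 and in Cy3 on arrays 3 and 4. In the study's methods morula collection is dated 1 day later, counted from fertilization, the number of embryos per pool varied and culture after thawing could run longer. The 4 pairs are described as biological replicates from separate fertilization cycles, and the p-values below rest on these 4 pairs. The error behind them is the spread left after a dye term, drawn by limma towards the variance of all probes tested. A difference between arrays 1 and 2 and arrays 3 and 4 goes into the dye term and not into that error. RNA was amplified before labelling, and whole embryos were pooled with inner cell mass and trophectoderm together. In such pools fewer cells of a type cannot be told apart from less RNA per cell.

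Translation begins when the small ribosomal subunit, held by the eIF3 scaffold and by eIF1 and eIF1A, receives initiator methionyl-tRNA from eIF2 bound to GTP. The eIF4F complex binds the mRNA cap and unwinds the leader, the subunit scans to a start codon, eIF5 triggers GTP hydrolysis, and eIF5B joins the large subunit. The exchange factor eIF2B reloads eIF2 with GTP, and this is the step that stress kinases restrain by phosphorylating eIF2 alpha. Elongation is carried by eEF1A, which delivers aminoacyl-tRNA, and eEF2, which moves the ribosome along, and eRF1 with eRF3 releases the finished chain. In the cleavage embryo, several initiation factors are among the first genes transcribed at activation of the embryonic genome, and the blastocyst makes protein at a high rate for expansion. Much control of these factors acts on the protein, by phosphorylation, and an mRNA array does not read it.

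Most factors were detected in every pool of both groups, and none showed a difference that passed the test. Of the 55 factors tested, 49 (89.1%) lay above the negative control level in all 8 readings, against 71.8% of all genes tested. The log2 ratio of slow-frozen over control ranged from -0.36 for EIF1AY to 0.40 for EEF1G, with a median of 0.02 against -0.004 over all 11822 genes tested. By limma with Benjamini-Hochberg adjustment over all probes tested, 0 of 55 factors had an adjusted p under 0.05 (0% of all genes). Every one had an adjusted p of 0.9999. At an unadjusted p under 0.05 the count was also 0 of 55, where 1.91% of all genes passed (0.905% higher and 1.01% lower in slow-frozen pools). No factor passed both a 1.5-fold change and that unadjusted p, as 0.381% of all genes did. The lowest unadjusted p of any factor was 0.0575, for EIF1AY, and its p fell below 0.05 in 9 of the alternative ways of processing, with an adjusted p above 0.05 in each. Without array 3 the unadjusted count was 3 of 55 (EIF1AY, EIF2S3 and GSPT2), where 565 of all 11822 genes passed. Without array 4 it was 4 of 55 (EIF3D, EIF3G, EIF3I and EEF1G), where 857 of all genes passed. EEF1G also passed the 1.5-fold change without array 4, at a log2 ratio of 0.94. These factors were named after their values were seen.

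With loess normalization the factors lay on both sides of 0, while centring each array on its median put 6 of them higher and 49 lower. With loess, slow-frozen pools were higher for 30 factors and lower for 25, or 54.5% higher, against 49% of all genes. The count of factors higher was 31, 24, 22 and 27 of 55 on arrays 1 to 4, and their median ratios were 0.11, -0.05, -0.05 and -0.009 on the log2 scale. The 4 pairs of pools thus disagreed on the sign of the median, with array 1 above 0 and the other three below it. A ratio above 0 on all 4 arrays was seen for 2 factors, EIF6 and EIF3F, where 3.52% of all genes had one. A ratio below 0 on all 4 arrays was seen for EIF1AY and EIF2S1, where the share of all genes was 4.02%. With 4 arrays, a two-sided exact sign-flip test of a single gene cannot give a p under 0.125.

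**Figure D1:**
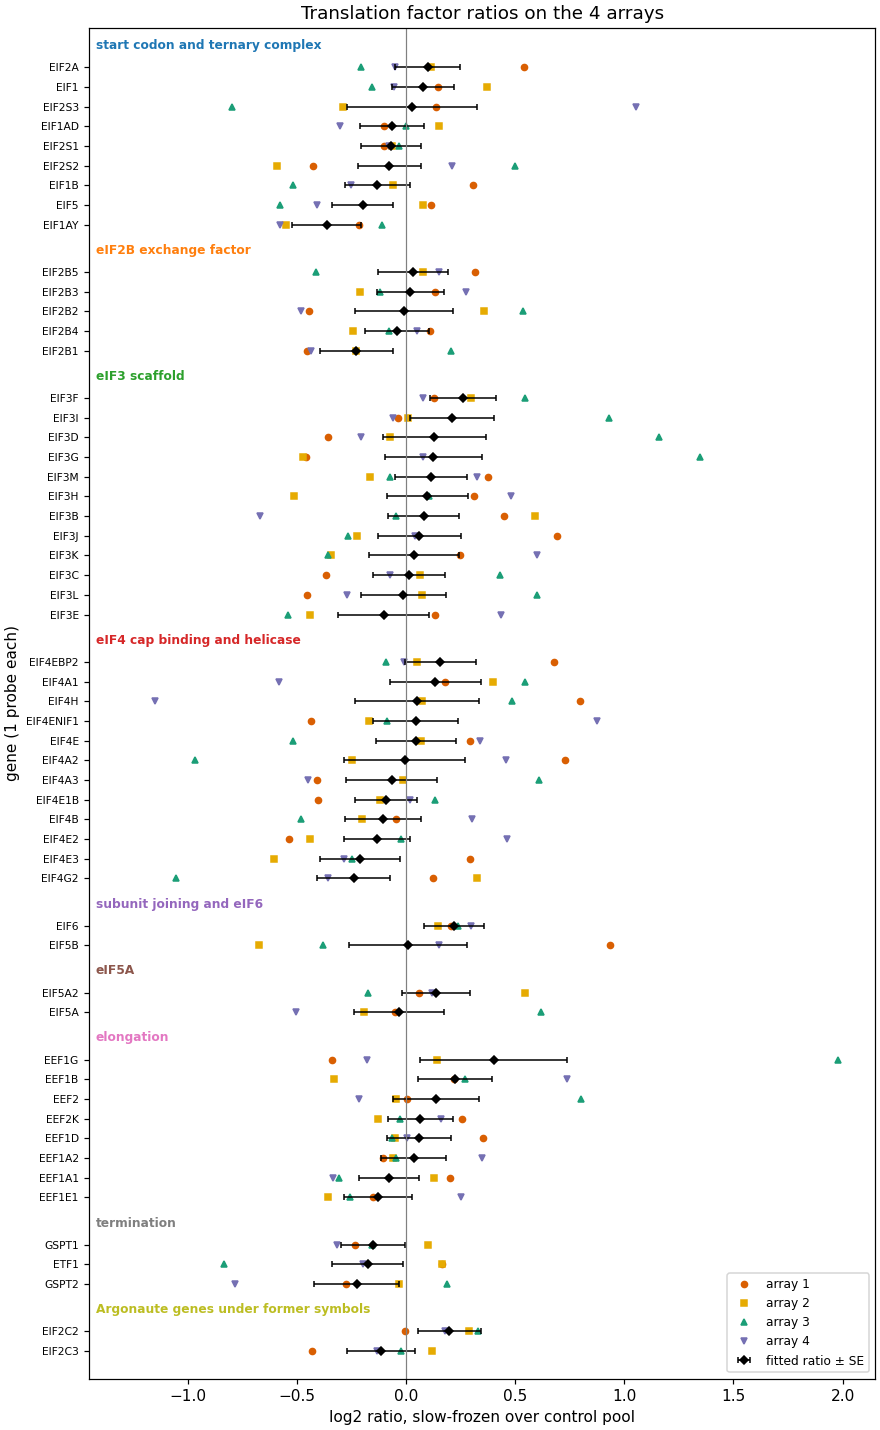
Log2 ratio of slow-frozen over control for each translation factor tested, with 1 point for each of the 4 arrays and a mark for the mean, grouped by role in translation. The means lie between -0.36 (EIF1AY) and 0.40 (EEF1G), and for 51 of the 55 factors the 4 arrays fall on both sides of 0.

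The pools limited how small a difference could have been seen. The median standard error of the factors was 0.164 on the log2 scale, close to the 0.162 of all genes. For 37 of the 55 factors (67.3%) the 95% interval of the ratio lay inside a 1.5-fold change in either direction, against 66.7% of all genes. The other 18 had an interval reaching past 1.5-fold, namely EEF1B, EEF1G, EEF2, EIF2B1, EIF2S3, EIF4A1, EIF4A2, EIF4E3, EIF4G2, EIF4H, EIF5B, GSPT2, EIF1AY and 5 eIF3 subunits (EIF3D, EIF3E, EIF3F, EIF3G and EIF3I). A 1.5-fold change was thus not excluded for those genes, and for 5 of them (EEF1G, EIF2S3, EIF4H, EIF4A2 and EIF5B) the interval was wider than 1.5-fold on each side of the mean.

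EIF1AY gave the lowest ratio of any factor. It is the Y-linked copy of the gene for eIF1A, which with eIF1 keeps the small subunit open for scanning. Whether the probe also binds transcripts of the X-linked copy, EIF1AX, is not known here, because its sequence was not read, so signal of the copies cannot be told apart. Its normalized log2 signal was 7.55, 6.82, 8.30 and 7.12 in the slow-frozen pools of arrays 1 to 4 and 7.77, 7.37, 8.41 and 7.70 in their control pools. The slow-frozen pool was the lower of the pair on every array, by -0.22, -0.55, -0.11 and -0.58, although the ranges of the groups overlapped because arrays differed in level. The mean was -0.36 ± 0.16 (SE), with an interval from -0.74 to 0.02 (limma adjusted p = 0.9999). The probe was dim, above the negative control level in 3 of 4 slow-frozen and 4 of 4 control pools.

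Because a Y-linked transcript depends on how many male embryos a pool held, other sex-linked probes were read beside it. DDX3Y, a Y-linked RNA helicase, had log2 ratios of 1.00, 0.86, -0.16 and -0.98 on arrays 1 to 4. SRY, the male-determining gene, had a dim probe, detected in 3 of 4 pools of each group. Its ratios were -0.04, -0.13, -0.09 and -0.05, with a mean of -0.08 ± 0.14 (limma unadjusted p = 0.58). They lay below 0 on every array as those of EIF1AY did, but each was smaller than that error. The Y-linked probes ZFY and TSPY were above the negative control level in 1 of 8 readings each and were not tested. XIST, the RNA that coats the inactive X chromosome, had -0.96, -0.77, 1.01 and 1.45. DDX3Y and XIST ran in opposite directions to each other on all 4 arrays. Both turned sign between arrays 1 and 2 and arrays 3 and 4, which have the dyes the other way round. Their dye terms in the fit were 0.75 and -1.05. DDX3Y was higher in the slow-frozen pool on arrays 1 and 2, where EIF1AY was lower. The part of pool sex in the EIF1AY ratio was not tested. The X-linked gene EIF2S3, which encodes the gamma subunit of eIF2, had 0.14, -0.29, -0.80 and 1.05, and X-linked GSPT2 had -0.28, -0.03, 0.19 and -0.78.

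The other genes of start codon selection lay close to equal. EIF1, the start codon fidelity factor, had log2 signals of 15.58, 15.83, 15.62 and 15.58 in slow-frozen pools and 15.43, 15.46, 15.77 and 15.63 in control pools. The groups overlapped, and the ratio was 0.08 ± 0.14 (arrays 0.15, 0.37, -0.15 and -0.06; limma adjusted p = 0.9999). Its paralog EIF1B had -0.13 ± 0.15 and EIF1AD, an eIF1A domain gene, -0.06 ± 0.15. EIF5, which makes eIF2 hydrolyse its GTP at the start codon, was at 13.35, 13.22, 12.70 and 12.61 in slow-frozen pools against 13.24, 13.14, 13.27 and 13.02 in control pools. The slow-frozen pools of arrays 3 and 4 were below all control pools and those of arrays 1 and 2 were inside or above the control range, for a ratio of -0.20 ± 0.14 (arrays 0.11, 0.08, -0.58 and -0.41; limma adjusted p = 0.9999). That split falls between arrays 1 and 2 and arrays 3 and 4, which have the dyes the other way round, and the dye term of EIF5 was 0.29. Its other probes had means of -0.21 and -0.26. Array by array the first gave -0.10, 0.09, -0.73 and -0.09 and the second -0.54, -0.33, 0.11 and -0.27.

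The 3 subunits of eIF2 did not move together. EIF2S1 encodes the alpha subunit that stress kinases phosphorylate, and it had the narrowest spread of any factor, at -0.10, -0.06, -0.03 and -0.08 on arrays 1 to 4 and a mean of -0.07 ± 0.14. That error is larger than the spread of its own arrays because limma shares the variance over all probes tested. EIF2S2, the beta subunit, lay at -0.43 and -0.59 on arrays 1 and 2 and at 0.50 and 0.21 on arrays 3 and 4, which have the dyes the other way round. EIF2S3 spanned 1.85 log2 units and averaged 0.03 ± 0.30. EIF2A, an alternative factor for bringing initiator tRNA, was at 0.10 ± 0.15. Over the 9 genes of the group, 3 were higher and 6 lower, with a median of -0.07.

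The 5 subunits of the exchange factor eIF2B were all detected in all 8 readings. EIF2B1, the alpha subunit of the regulatory part, had log2 signals of 8.77, 8.69, 9.48 and 8.83 in slow-frozen pools and 9.23, 8.92, 9.27 and 9.26 in control pools. It was lower in the slow-frozen pool on arrays 1, 2 and 4 and higher on array 3, with a ratio of -0.23 ± 0.17 (-0.45, -0.23, 0.21 and -0.43; limma adjusted p = 0.9999). EIF2B5, the catalytic epsilon subunit, was at 0.03 ± 0.16 (0.32, 0.08, -0.41 and 0.15; limma adjusted p = 0.9999). EIF2B2, EIF2B3 and EIF2B4, the beta, gamma and delta subunits, averaged -0.008, 0.02 and -0.04. The group median was -0.008, with 2 subunits higher and 3 lower.

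The eIF3 subunits were the group with the most genes on one side. Of 12 subunits tested, all above the negative control level in all 8 readings, 10 were higher in slow-frozen pools and 2 were lower, with a median log2 ratio of 0.09. None passed the test, and array by array the lean was not shared. The count higher was 7, 5, 7 and 7 of 12 on arrays 1 to 4, with medians of 0.13, -0.12, 0.27 and 0.06. Without array 1 the count fell to 7 of 12 and without array 3 to 6 of 12, while without arrays 2 and 4 it was 10 and 9. Centring each array on its median in place of the loess curve, which removes a trend of the ratio with signal strength, gave 0 of 12 higher and a median of -0.21, where all genes moved to a median of -0.13.

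**Figure D2:**
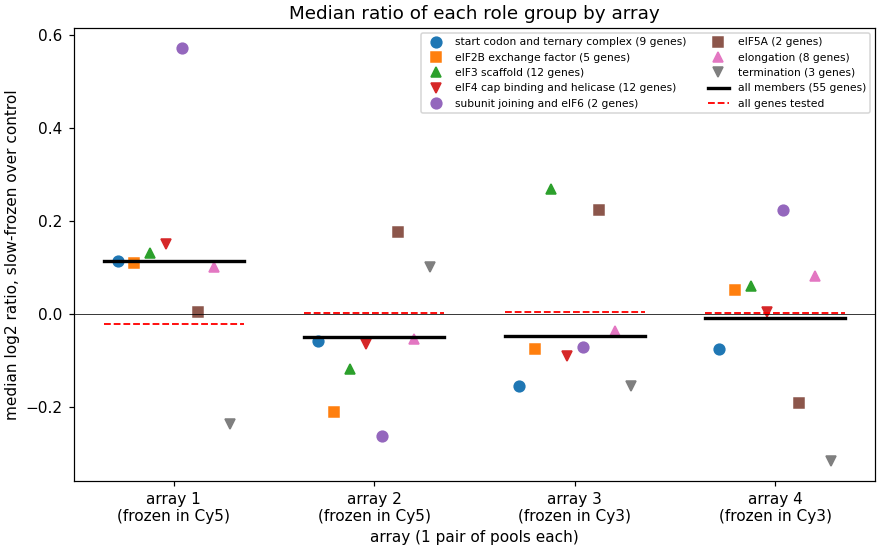
Median log2 ratio of slow-frozen over control for each role group on each of the 4 arrays, as points. The eIF3 subunits lie at 0.13, -0.12, 0.27 and 0.06 and the termination factors at -0.24, 0.10, -0.15 and -0.31.

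By the probe used, EIF3F was the eIF3 subunit that separated the groups. It encodes one of the MPN-domain subunits of the complex. Its log2 signals were 14.27, 14.40, 14.69 and 14.27 in slow-frozen pools and 14.14, 14.11, 14.15 and 14.19 in control pools, so that all slow-frozen pools were above all control pools. The ratio was 0.26 ± 0.15, with an interval from -0.11 to 0.63 (arrays 0.13, 0.30, 0.54 and 0.08; limma adjusted p = 0.9999). Its other 3 probes had means of 0.19, 0.29 and 0.24, but each was below 0 on array 1. The first gave -0.997, 0.51, 1.28 and -0.05 on arrays 1 to 4. The second gave -0.07, 0.26, 1.34 and -0.36, and the third -0.10, 0.65, -0.33 and 0.76. The lean on all 4 arrays was thus seen with the probe used and not with the others. With median centring the ratio of the probe used was -0.07.

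The means of EIF3G, EIF3D and EIF3I rested on array 3. EIF3G, which binds RNA, had 1.35 on array 3 and -0.46, -0.47 and 0.08 on arrays 1, 2 and 4. EIF3D, the subunit able to bind a cap, had 1.16 on array 3 and values from -0.36 to -0.07 on the others. EIF3I had 0.93 on array 3 and between -0.06 and 0.01 elsewhere. A further probe of EIF3G gave 1.17 and one of EIF3I 1.10 on the same array, so that separate spots for each gene gave a high value from that pair of pools. Their means were 0.12 ± 0.22, 0.13 ± 0.24 and 0.21 ± 0.19.

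EIF3E and EIF3K lay below 0 on that array. EIF3E, part of the octamer core, had 0.13, -0.44, -0.54 and 0.44 on arrays 1 to 4 and a mean of -0.10 ± 0.21. EIF3K, a small accessory subunit, had 0.25, -0.34, -0.36 and 0.60 and a mean of 0.04 ± 0.21 (limma adjusted p = 0.9999). EIF3B, EIF3H, EIF3J and EIF3M averaged 0.08, 0.10, 0.06 and 0.12. EIF3C and EIF3L averaged 0.01 and -0.01, and the EIF3C probe is assigned to EIF3CL, a near-identical copy, in the current RefSeq annotation, so that the copies cannot be told apart.

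The cap-binding and helicase genes lay on both sides of 0, with 5 of 12 higher, 7 lower and a median of -0.04. EIF4E, the cap-binding protein, was at 0.04 ± 0.18 (0.29, 0.07, -0.52 and 0.34), and its 2 further probes gave 0.03 and -0.03. Its relatives EIF4E2, EIF4E3 and the oocyte form EIF4E1B had -0.13 ± 0.15, -0.21 ± 0.18 and -0.09 ± 0.14, and EIF4E1B was detected in only 2 of 4 pools of each group. EIF4EBP2, an inhibitor that holds EIF4E away from the scaffold, was at 0.16 ± 0.16, and EIF4ENIF1, the EIF4E transporter, at 0.05 ± 0.19. A further probe of the inhibitor EIF4EBP1 could be tested and gave -0.06 ± 0.14.

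The helicase genes varied widely between pairs of pools. EIF4A1, the main helicase of the complex, had 0.18, 0.40, 0.54 and -0.58 on arrays 1 to 4. Its paralog EIF4A2 had 0.73, -0.25, -0.96 and 0.46, which is the reverse sign on arrays 2, 3 and 4. EIF4H, which stimulates the helicase, went from 0.80 on array 1 to -1.15 on array 4. Their means were 0.13 ± 0.21, -0.007 ± 0.28 and 0.05 ± 0.28, and EIF4A3, the exon junction helicase, and EIF4B, the other stimulator, averaged -0.07 and -0.11.

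EIF4G2, a scaffold that lacks the cap-binding end and serves initiation without the cap complex, was the lowest of the eIF4 genes. Its log2 signals were 15.08, 15.67, 14.29 and 15.14 in slow-frozen pools and 14.95, 15.35, 15.34 and 15.50 in control pools. The slow-frozen pool of array 3 was the lowest of the 8 and that of array 2 the highest. The ratio was -0.24 ± 0.17, with an interval from -0.65 to 0.17 (arrays 0.13, 0.32, -1.05 and -0.36; limma adjusted p = 0.9999), and a further probe gave -0.03.

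EIF6 had a small but even ratio. The protein keeps the large ribosomal subunit from joining too early and is needed in ribosome assembly. Its log2 signals were 14.13, 13.98, 13.83 and 14.35 in slow-frozen pools and 13.92, 13.83, 13.60 and 14.06 in control pools, and the groups overlapped although each slow-frozen pool was above its partner. The ratio was 0.22 ± 0.14 or 1.17-fold, with an interval from -0.11 to 0.55 (arrays 0.21, 0.15, 0.24 and 0.30; limma adjusted p = 0.9999). A further probe of the gene did not share the pattern, with -0.28, -0.23, 0.78 and -0.19 and a mean of 0.02 ± 0.19, and with median centring the ratio of the probe used was -0.10.

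EIF5B, which joins the subunits, had 0.93, -0.67, -0.38 and 0.15 and averaged 0.009 ± 0.27. EIF5A, which carries the hypusine residue and helps ribosomes through stalling sequences, had -0.05, -0.19, 0.62 and -0.50, for a mean of -0.03 ± 0.21 (limma adjusted p = 0.9999). Its paralog EIF5A2 averaged 0.14 ± 0.16. None of these genes had the same sign on all 4 arrays.

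**Figure D3:**
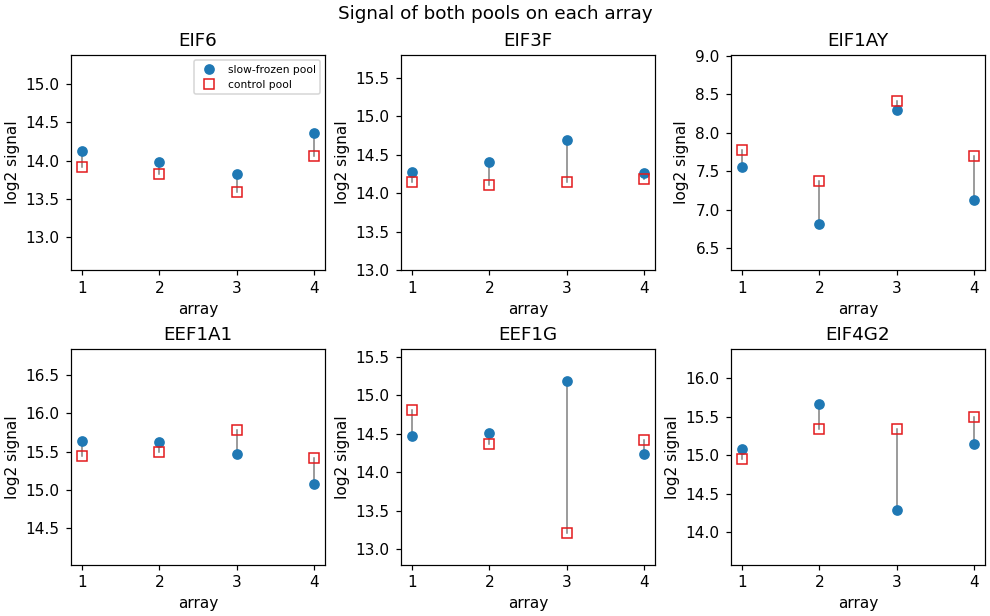
Normalized log2 signal of 6 factors in every pool, with the slow-frozen and control pool of each array joined by a line. EIF6 and EIF3F rise from control to slow-frozen on all 4 arrays and EIF1AY falls on all 4, while EEF1G rises by 1.98 on array 3 and by 0.14 or falls on the others.

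Among the elongation factors, 6 of 8 were higher and 2 lower, with a median of 0.06 and none past the test. The count higher was 5, 2, 3 and 5 of 8 on arrays 1 to 4. It was 4 of 8 without array 1 and 4 of 8 without array 3. Under median centring 3 of 8 were higher, with a median of -0.13. EEF1A1, the carrier of aminoacyl-tRNA, had log2 signals of 15.64, 15.62, 15.47 and 15.08 in slow-frozen pools and 15.44, 15.49, 15.78 and 15.41 in control pools. It was higher in the slow-frozen pool on arrays 1 and 2 and lower on arrays 3 and 4, for a ratio of -0.08 ± 0.14 and an interval from -0.41 to 0.25 (0.20, 0.13, -0.31 and -0.33; limma adjusted p = 0.9999). The dyes are swapped between arrays 1 and 2 and arrays 3 and 4, and the dye term of EEF1A1 was 0.24. A further probe gave 0.18. Its paralog EEF1A2, known from brain and muscle, was dim and averaged 0.03 ± 0.15.

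The subunits of the exchange factor that reloads eEF1A differed in spread. EEF1G, the gamma subunit, had the highest mean and the widest range of all factors, 2.32 log2 units. Its log2 signals were 14.47, 14.51, 15.19 and 14.24 in slow-frozen pools and 14.81, 14.36, 13.21 and 14.42 in control pools. On array 3 the slow-frozen pool was the highest of the 8 and the control pool the lowest, and the other 3 pairs were close. The ratio of 0.40 ± 0.34, with an interval from -0.40 to 1.21 (-0.34, 0.14, 1.98 and -0.18; limma adjusted p = 0.9999), became -0.14 without array 3.

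EEF1B, the beta subunit now named EEF1B2, was at 13.26, 12.20, 12.75 and 13.15 in slow-frozen pools and 13.04, 12.53, 12.48 and 12.41 in control pools. The slow-frozen pool was higher on arrays 1, 3 and 4, and the ratio was 0.22 ± 0.17 (0.22, -0.33, 0.27 and 0.74; limma adjusted p = 0.9999). EEF1D, the delta subunit, and EEF1E1, a partner found in the multi-synthetase complex, averaged 0.06 ± 0.15 and -0.13 ± 0.16, but a further probe of EEF1E1 gave 0.28 ± 0.15. EEF2, the translocation factor, was close to 0 on arrays 1 and 2 (0.003 and -0.04), at 0.80 on array 3 and at -0.22 on array 4, for a mean of 0.14 ± 0.20. EEF2K, the kinase that inhibits it, averaged 0.07 ± 0.15.

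All 3 termination factors had ratios below 0, with a median of -0.18. ETF1 encodes eRF1, which reads the stop codon, and had 0.16, 0.16, -0.83 and -0.20, for a mean of -0.18 ± 0.16. GSPT1 encodes its GTPase partner eRF3a and had -0.24, 0.10, -0.15 and -0.31, for a mean of -0.15 ± 0.15 (limma adjusted p = 0.9999). GSPT2, the X-linked paralog, averaged -0.23 ± 0.19. The ratios of each gene fell on both sides of 0 across the arrays.

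The symbols EIF2C1, EIF2C2 and EIF2C3 belong to genes now named AGO1, AGO2 and AGO3, whose Argonaute proteins carry small RNAs and are not translation factors. They entered by their symbols alone. EIF2C2 was at 0.20 ± 0.14 (-0.004, 0.29, 0.33 and 0.18; limma adjusted p = 0.9999) and EIF2C3 at -0.12 ± 0.16. Without them 53 factors remained, 29 of them higher, and the median was still 0.02.

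Among the factors, the pair of pools on array 3 gave the most wide ratios. Beyond 1.5-fold in either direction lay 5, 4, 12 and 7 of the 55 factors on arrays 1 to 4. On at least 1 array 23 factors passed that line. The same counts were not made over all genes, so they cannot be read as particular to the factors. Array 3 gave the highest of the 4 ratios for 19 factors and the lowest for 17. The widest ranges after EEF1G belonged to EIF4H (1.95), EIF2S3 (1.85), EIF3G (1.82), EIF4A2 (1.69), EIF5B (1.61), EIF3D (1.52) and EIF4G2 (1.38). The median standard deviation across the arrays was 0.372 for the factors and 0.340 for all genes.

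Arrays did not repeat each other over these genes. As a description across genes, which are not independent replicates, the ratios of the factors correlated with r of 0.007 between arrays 1 and 2, -0.46 between 1 and 3, 0.06 between 1 and 4, 0.08 between 2 and 3, -0.40 between 2 and 4 and -0.27 between 3 and 4. Over all probes tested the same pairs gave 0.02, -0.17, -0.001, 0.04, -0.28 and -0.21. No pair of arrays had a clear positive correlation.

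Further probes of the same genes gave a check on the spots. For 19 factors at least 1 further probe was tested, 26 probes in all, and 0 of the 26 had a limma p under 0.05. The sign of the mean was shared with the probe used for 17 of the 26 and opposite for 9, across 9 genes. Array by array, 65 of 104 ratios had the same sign, and the means of the paired probes correlated with r = 0.57, given as a description over probes that share arrays and genes.

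The opposite signs fell mostly on genes with means near 0. They were EEF1A1 (-0.08 for the probe used and 0.18 for the further probe), EEF1E1 (-0.13 and 0.28), EIF5A (-0.03 and 0.25), EIF1 (0.08 and -0.09), EIF1AD (-0.06 and 0.01), EIF2B2 (-0.008 and 0.05), EIF2B5 (0.03 and -0.07), EIF3C (0.01 and -0.003) and EIF4E (0.04 and -0.03). The genes with a larger mean and the same sign of the mean included EIF3F and EIF5, although on single arrays their probes differed in sign.

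**Figure D4:**
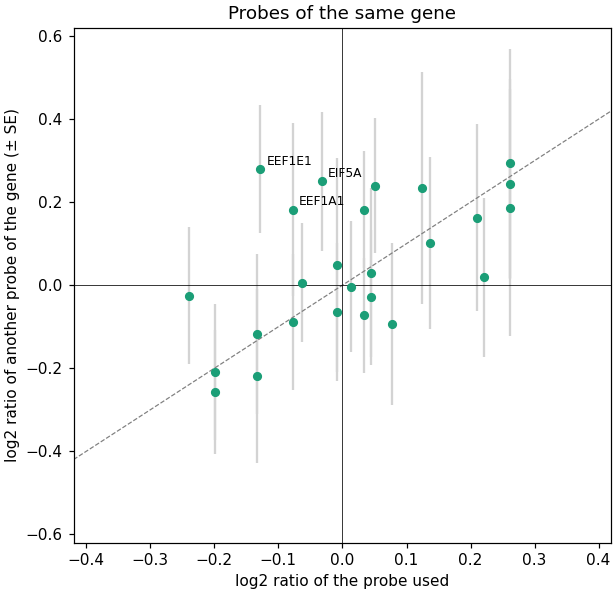
Mean log2 ratio of each further probe against that of the probe used for the same factor, with the line of equality. Of 26 further probes, 17 share the sign of the probe used and 9 do not. The means of the EIF3F probes (0.19, 0.29 and 0.24 against 0.26) and EIF5 probes (-0.21 and -0.26 against -0.20) lie near the line. On single arrays the probes of both genes differed in sign.

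Genes that control or assist these factors were read from a list of 57, of which 51 had a probe and 48 were tested. In slow-frozen pools 31 were higher and 17 lower (64.6% higher, against 49% of all genes), with a median of 0.02. Array by array the lean was not shared, with 28, 22, 23 and 24 of 48 higher and medians of 0.09, -0.02, -0.03 and 0.001. By limma 0 of 48 had an unadjusted p under 0.05, against 1.91% of all genes. The 95% interval lay inside a 1.5-fold change for 33 of the 48, so such a change was not excluded for the rest. PABPC1, which binds the poly(A) tail and contacts eIF4G, had the lowest p of the list, at 0.31 ± 0.15 (0.86, 0.40, 0.10 and -0.13; limma adjusted p = 0.9999). LARP1, which holds back mRNAs of ribosomal proteins, was above 0 on all 4 arrays (0.33, 0.10, 0.27 and 0.06), and MTOR, the kinase that phosphorylates the EIF4E inhibitors, was below 0 on all 4 (-0.40, -0.19, -0.09 and -0.03). PABPC1L and RNF160 (now LTN1) were the other genes of the list above 0 on all 4 arrays and MTRF1L the other one below, which makes 3 and 2 of 48 where the shares of all genes were 3.52% and 4.02%.

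The kinases of eIF2 alpha, EIF2AK1 to EIF2AK4, averaged -0.26, 0.008, -0.08 and -0.03, and 1 of 4 was higher. The targets of that pathway went in different directions from pair to pair. ATF4, the transcription factor translated when eIF2 is phosphorylated, had 0.16, -0.64, 0.55 and 1.26 on arrays 1 to 4. The median of ATF4, DDIT3, ASNS and TRIB3 was 0.34 on array 1, -0.58 on array 2, 0.07 on array 3 and 0.78 on array 4. TUFM, the elongation factor of the mitochondrion, was at 1.83 on array 3 and between -0.51 and 0.38 on the others.

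Probes for markers of other cells were read in the same pools. All 11 trophectoderm markers with a probe were above the negative control level in all 8 readings, with a median ratio of 0.07, 8 higher and 3 lower, and IFNT, the interferon of the trophectoderm, at -0.84 and between -1.74 on array 4 and 0.67 on array 3. Of 6 epiblast markers tested 5 were above that level in all 8 readings, and 5 were higher and 1 lower with a median of 0.31. The count higher was 3, 6, 4 and 3 of 6 on arrays 1 to 4, with medians of -0.05, 0.70, 0.17 and 0.01. NANOG had the highest mean, 0.82 ± 0.87, from -2.18, 3.24, 2.59 and -0.39. LIN28B was above 0 on all 4 arrays, as 3.52% of all genes were, at 0.63 ± 0.22. By limma its adjusted p was 0.9999, and it was the 1 epiblast marker with an unadjusted p below 0.05 (1.91% of all genes). The 5 hypoblast markers tested had a median of -0.12, with 2 higher and 3 lower, and HNF4A ranged from -2.74 on array 1 to 2.26 on array 3. Of 10 markers of cumulus and granulosa cells, which surround the oocyte, 8 were tested and 3 were above that level in all 8 readings, while AMH was at 0 of 8. The 8 had a median ratio of -0.12, with 3 higher and 5 lower. Of 5 sperm markers 3 were tested and PRM2 was at 0 of 8, and of 5 blood markers 4 were tested. The part of such cells, and of differing shares of embryonic cell types, in the ratios of the factors was not tested.

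The sign of many small ratios followed the normalization. Under median centring 6 of the 55 factors were higher and 49 lower, with a median of -0.26, while all genes shifted to 28.0% higher and a median of -0.13. The factors thus lay 0.13 below the median of all genes there, and 0.02 above it with loess. In that setting 0 of 55 had an adjusted p under 0.05 and 7 had an unadjusted p under 0.05, as did 913 of all genes. The members lower under both settings included EIF1AY, EIF5, EIF4G2, EIF2B1 and GSPT1.

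**Figure D5:**
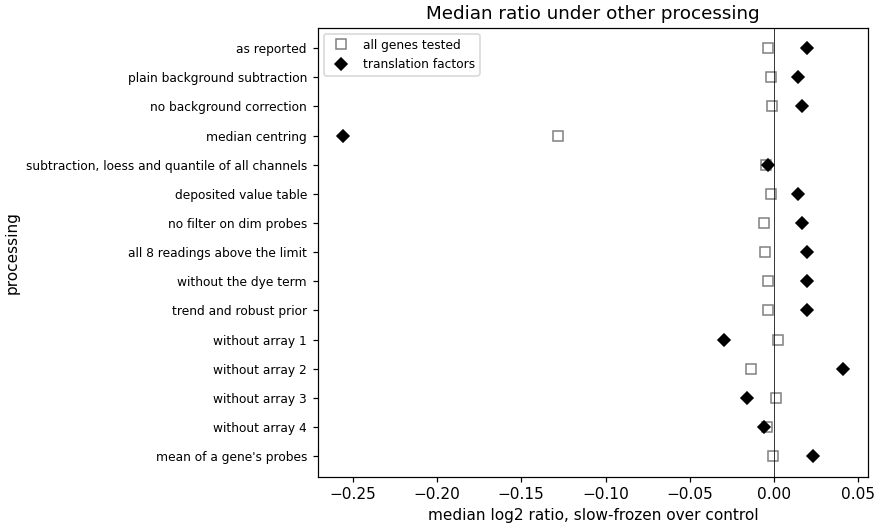
Median log2 ratio of the translation factors and of all genes tested under each way of processing the arrays. The factors stay between -0.03 and 0.04 in every setting but median centring, where they reach -0.26 and all genes -0.13.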

How the data were processed

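RNA of 4 pairs of blastocyst pools was amplified, labelled and hybridised on 4 two-colour arrays. The deposited scanner files hold spot and background median intensity per channel, not corrected by the authors. The authors' deposited value table holds log2 Cy5 over Cy3 ratios after their background subtraction and loess, as its fit to ratios computed here showed. It was used as an alternative, and 0 columns were left unused.

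Intensities were corrected by normexp (offset 50) and loess-normalized within each array, with control spots given no weight. Every ratio was expressed as slow-frozen over control. Probes were tested if at least 4 of 8 readings exceeded the 95th percentile of the 153 negative controls. Testing used limma 3.58.1 (R 4.3.3) with a dye term, and p-values were adjusted by Benjamini-Hochberg over the 30473 probes tested. The 11822 genes tested were read from these, with 1 probe per gene. The fit was tested on simulated data. Figures were drawn with matplotlib 3.10.9. Array annotation gave 1 symbol to 21790 probes and none to 22004, and 1524 symbols were updated through RefSeq. The number of arrays limits the precision. Median raw signal per array was 93 to 228 in Cy5 and 221 to 237 in Cy3.

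Full values were given for the 8 smallest p, the 3 highest and 3 lowest ratios and the brightest gene of each role. Members, lists and tests were chosen with earlier results of these data known. Alternatives changed the background correction, normalization, filter, model, choice of probe and arrays.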

Additional observations from a re-analysis of the deposited data

Results flagged for a closer look

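For 3 of the 55 translation factors 1 array stood apart from the other 3, further than the 95% limit for a group of 4 values allows. Chance gives this in about 1 in 20 groups. EIF3I, an eIF3 subunit, was at 0.93 on array 3 and between -0.06 and 0.01 on the others. EEF1A2 was at 0.35 on array 4 and between -0.10 and -0.05 on the others, with a dim probe. EEF1D was at 0.35 on array 1 and between -0.07 and 0.004 on the others.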

How the results depend on the processing

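No translation factor passed an adjusted p of 0.05 by limma under any of the 17 alternatives. The count at an unadjusted p under 0.05 ranged from 0 to 4 without single arrays. It was 7 under median centring and at most 1, EIF1AY, in the others. Over all 11822 genes that count ranged from 192 to 857 without single arrays and was 913 under median centring. Under median centring 6 factors were higher, the median of the factors was -0.26 and that of the related translation genes -0.17. Leaving out 1 array at a time gave 20 to 33 factors higher, a median of -0.03 to 0.04 for the factors and -0.02 to 0.06 for the related genes. The lowest count came without array 1. Of the 15 factors with full values, 6 kept their sign in every alternative (EIF1AY, EIF2B1, EIF2C2, EIF4G2, EIF5 and GSPT1) and 9 did not. Under median centring EIF2B5 was -0.26, EIF3F -0.068, EIF3K -0.31, EEF1B -0.081, EIF1 -0.26 and EIF6 -0.10. With plain subtraction, loess and quantile normalization EIF3K was -0.0034 and EIF1 -0.034. When all probes of a gene were averaged EIF5A was 0.11, EEF1A1 0.052 and EIF1 -0.0078. Without single arrays EIF2B5 ranged from -0.11 to 0.17, EIF3K from -0.20 to 0.28, EIF5A from -0.31 to 0.25 and EEF1G from -0.14 to 0.94. The cause was not tested. Of all 55 factors, 36 turned sign without some single array. Slow-frozen and control pools were paired within arrays. Reading the channels separately, with the correlation between the channels of a spot in the model, gave 30 factors higher and a median of 0.02. That model kept the pairing, so it does not show what dropping the pairing would give. Dim probes and 4 arrays limit what could be detected.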
